A study of Mus musculus with 2 samples.

Results

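The clustered protocadherin genes of the mouse lie in 3 neighbouring arrays, alpha, beta and gamma, on the plus strand of chromosome 18 (mm10, from 36930184 to 37841873). Their 57 protein-coding members were chosen by symbol and chromosome from the GENCODE M21 gene models, out of 21851 protein-coding genes with a start site. The rule used no measured value, but it was set with earlier results of these data known. They comprise 14 alpha genes, 22 beta genes and 21 gamma genes. GENCODE M21 gives the symbol Pcdha11 to a pair of neighbouring alpha genes, and the first of them is called Pcdha10 here, as RefSeq names that position. Accessibility was mapped by DNase-seq, in which DNase I cuts DNA that is not covered by nucleosomes or bound proteins, so that dense cuts form a peak and short protected stretches form footprints. The tissue was adult hippocampus (labelled as a layer of hippocampus, with no layer named) of male B6CASTF1/J mice, a cross of C57BL/6J and CAST/EiJ, aged 8 to 10 months. The 2 samples are biological replicates 1 and 2 of 1 group, each a pool of 2 biosamples, and both carry the same donor label.

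Clustered protocadherins are adhesion proteins of the neuronal surface that bind the same isoform on another cell. Each neuron expresses its own combination, and this gives its branches an identity by which they recognise and avoid each other. Every member has its own first exon, the variable exon, with its own promoter. In the alpha and gamma arrays this exon is spliced to constant exons at the end of the array, whereas each beta gene is a single unit. The alternate promoters are chosen stochastically, a few per neuron, while the C-type genes (Pcdhac1, Pcdhac2, Pcdhgc3, Pcdhgc4 and Pcdhgc5), which close the alpha and gamma arrays, are expressed in most neurons or in broad classes of them. Most alternate promoters carry a conserved element known as the CGCT box that CTCF can bind, many alpha variable exons hold a further CTCF site, and CTCF with cohesin connects chosen promoters to enhancers that lie outside the variable exons.

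The check on the tissue, the depth and the replicates applies to all members. All 8 promoters listed for hippocampal excitatory neurons had a peak in both replicates, against 5 of 6 for astrocytes, 4 of 6 for oligodendrocytes, 3 of 6 for inhibitory neurons and 1 each of 6 microglial, 6 endothelial and 5 choroid plexus promoters. Over all protein-coding genes the share was 62.6%, near that of several of these lists, so the counts do not measure the makeup of the tissue. In bulk tissue fewer cells with an open promoter and less accessibility per cell cannot be told apart. Replicate 1 had 144270 peaks and replicate 2 had 124426. Peak heights are the authors' own values on an unstated scale, whose smallest step was 0.00656 in replicate 1 and 0.00646 in replicate 2. Read totals are not given, so heights serve only to describe and rank peaks, and 2 samples of 1 group allow no test between conditions.

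Few clustered protocadherin promoters were open in the hippocampus. A promoter was called open when a peak overlapped the 1000 bp to either side of a start site. By this rule 18 of 57 members were open in both replicates (31.6%), where the share over all protein-coding genes was 62.6%. A further 12 members had a peak in 1 replicate alone, 8 of them in replicate 1 and 4 in replicate 2, where such promoters made up 3.38% of all genes. The remaining 27 had none in either replicate. Of those 27, 23 had not a single base within the window in the deposited list of bases at a false discovery rate of at most 0.05. The other 4 (14.8%) had some, where 3.40% of all genes with no promoter peak did. Footprints were found at 17 of 57 members in both replicates, against 61.2% of all protein-coding genes.

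The open share differed between the classes of member. All 5 C-type genes were open in both replicates, as were 9 of 22 beta genes, 3 of 18 gamma alternates and 1 of 12 alpha alternates. Because promoters rich in CpG are open more often in most tissues, each class was set beside all genes in the same deciles of the CpG observed/expected ratio (counted over 500 bp to each side of the start). A gene with several start sites took its highest ratio, and a peak near any of them made it open. The beta genes are CpG-poor (median ratio 0.390), and their share of 40.9% lay beside 41.5% for genes of the same CpG content. This holds for the longer peak lists. With the authors' shorter lists 2 of 22 beta genes were open in both replicates, and no share by CpG decile was taken there. The alpha alternates have a median ratio of 0.721, and their share of 8.33% lay beside 90.5%. The gamma alternates, at a median ratio of 0.593, had 16.7% open, against 82.1% for genes of the same CpG content. For the C-type genes the shares were 100% and 73.7%.

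**Figure D1:**
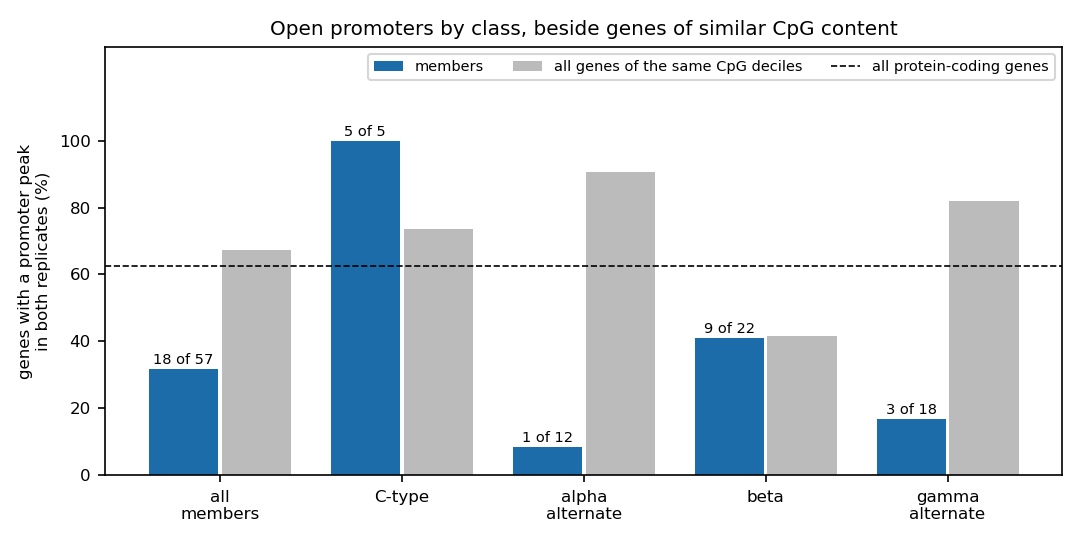
Share of genes with a promoter peak in both replicates (%, vertical axis), for all members and for each class (blue, counts above the bars), beside all genes of the same CpG deciles (grey); the dashed line is the share over all protein-coding genes, 62.6%. With the longer peak lists shown here, the beta genes stand level with genes of similar CpG content. The alpha and gamma alternates stand far below and the C-type genes above.

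Part of the arrays is repeated sequence, to which short reads may not map uniquely. The share of 32-base words within a window that occur once in the genome had a median of 93.9% over the members, with Pcdha7 lowest at 73.7%, against 99.2% over the 454 other protein-coding genes of chromosome 18. The open share of the members was lower than that of the other genes in each of 3 classes of uniqueness. Among members with at least 99% unique words 8 of 22 were open in both replicates, against 79.2% of 245 other genes of chromosome 18. Between 95% and 99% they were 3 of 6, against 79.5% of 127 other genes, and between 70% and 95% they were 7 of 29, against 64.8% of 71 other genes. The classes were not matched for CpG content. The median CpG ratio was 0.706 over the other chromosome 18 genes and 0.564 over the members. How much of each gap goes with CpG content was not tested. Read length and the mapping of the CAST/EiJ allele were not tested.

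The 4 highest member promoters by mean height were C-type. Pcdhgc3, whose start site is at position 37806410 of chromosome 18, had a promoter height of 5.15 in replicate 1 and 4.82 in replicate 2 (4.98 ± 0.237, SD, n = 2), higher than 69.4% of all promoters open in both replicates. Pcdhgc5 (start at 37819513) had 3.34 in replicate 1 and 1.72 in replicate 2. Pcdhac1 (start at 37090013) had 2.19 in replicate 1 and 2.29 in replicate 2 (2.24 ± 0.0663, SD, n = 2). Pcdhgc3 stood above the other 4 in each replicate, while Pcdhgc5 and Pcdhac1 changed places between them. Pcdhgc4, known in mice for the survival of cortical interneurons, had 1.32 in replicate 1 and 0.814 in replicate 2. Pcdhac2, known in mice for the spacing of serotonergic axons, had 1.24 in replicate 1 and 0.994 in replicate 2. These lower promoters also changed places, and both stayed below Pcdhgc5 and Pcdhac1 in each replicate. The gamma alternate Pcdhga12 was above both in replicate 1 and below both in replicate 2. Pcdhac2 had 11 footprints in replicate 1 and 13 in replicate 2, more than any other member, and Pcdhgc3 had 10 and 8, against a median of 7 and 8 over all open promoters. The GC content over 500 bp to each side of the start was 53.1% to 58.4% in the C-type genes and 37.4% to 49.95% in the other 52 members. A gene with several start sites took its highest value.

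Among the 12 alpha alternates, Pcdha8 alone was open in both replicates, with a height of 0.578 in replicate 1 and 0.820 in replicate 2. Pcdha5 had a peak in replicate 1 alone (0.486), and Pcdha12 (0.368) and Pcdha10 (0.323) had one in replicate 2 alone. No promoter peak was found in either replicate at Pcdha1, Pcdha2, Pcdha3, Pcdha4, Pcdha6, Pcdha7, Pcdha9 and Pcdha11. Of these 8 genes Pcdha4 had 8 bases listed at the false discovery rate limit in replicate 1, and the others had none. The peaks of Pcdha8, Pcdha5 and Pcdha12 were not at the start site but within the coding part of the variable exon. At Pcdha8 the peak spanned chr18:36992801-36992985 in replicate 1. Their midpoints lay at 522 bp and 536 bp past the start for Pcdha8 in replicates 1 and 2, at 439 bp for Pcdha5 and at 560 bp for Pcdha12. The peak of Pcdha10, at -50 bp, was the single alpha alternate peak near the start.

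The beta genes had low peaks, most of them close to the start site. Pcdhb4 was highest, with 0.689 in replicate 1 and 0.633 in replicate 2, followed by Pcdhb12 (0.459 and 0.497) and Pcdhb7 (0.433 and 0.523). All heights of the open beta promoters lay below those of the C-type genes. The 9 beta promoters open in both replicates had mean heights from 0.293 to 0.661, with a median of 0.407. Pcdhb4 was higher than 7.65% of all promoters open in both replicates, and the lowest of the 9, Pcdhb9, than 0.848%. Over the 9, the SD between replicates was 0.015 to 0.0635. Peaks in replicate 1 alone were found at Pcdhb16 (0.374), Pcdhb17 (0.335) and Pcdhb13 (0.282) and in replicate 2 alone at Pcdhb6 (0.329), while 2 further genes had one of at most 0.226. The beta promoters open in both replicates lay in the earlier part of the array. From Pcdhb1 to Pcdhb14, 9 of 14 genes were open in both replicates and Pcdhb5 had no peak, whereas from Pcdhb15 to Pcdhb22 none of 8 was open in both and 6 had no peak. The boundary was set after the values were seen, right after the last beta gene open in both replicates. The shares of both groups follow in part from that choice, and none of the later genes could be open in both. The later genes are also poorer in CpG, with a median ratio of 0.304, against 0.410 for the earlier ones. Genes of the same CpG deciles were open in 28.8% of cases for the later group, whose own share was 0%, and in 48.7% for the earlier group, whose own share was 64.3%. The share of unique words was 99% or more at all of the later genes but Pcdhb15, at 93.9%.

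Of the 3 gamma alternates open in both replicates, 2 were the last members before the C-type genes. Pcdhga12, the last alternate, had 1.51 in replicate 1 and 0.626 in replicate 2, and its neighbour Pcdhga11 had 0.879 and 0.794. Of the 16 alternates before them, Pcdhga3 was open in both replicates with 0.617 and 0.555, and Pcdhga2 (0.473), Pcdhga8 (0.407) and Pcdhgb1 (0.381) had a peak in replicate 1 alone. The other 12 had none, among them 5 of the 6 B-type genes, of which none was open in both replicates. Pcdhga12 was the member with the largest ratio between replicates.

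**Figure D2:**
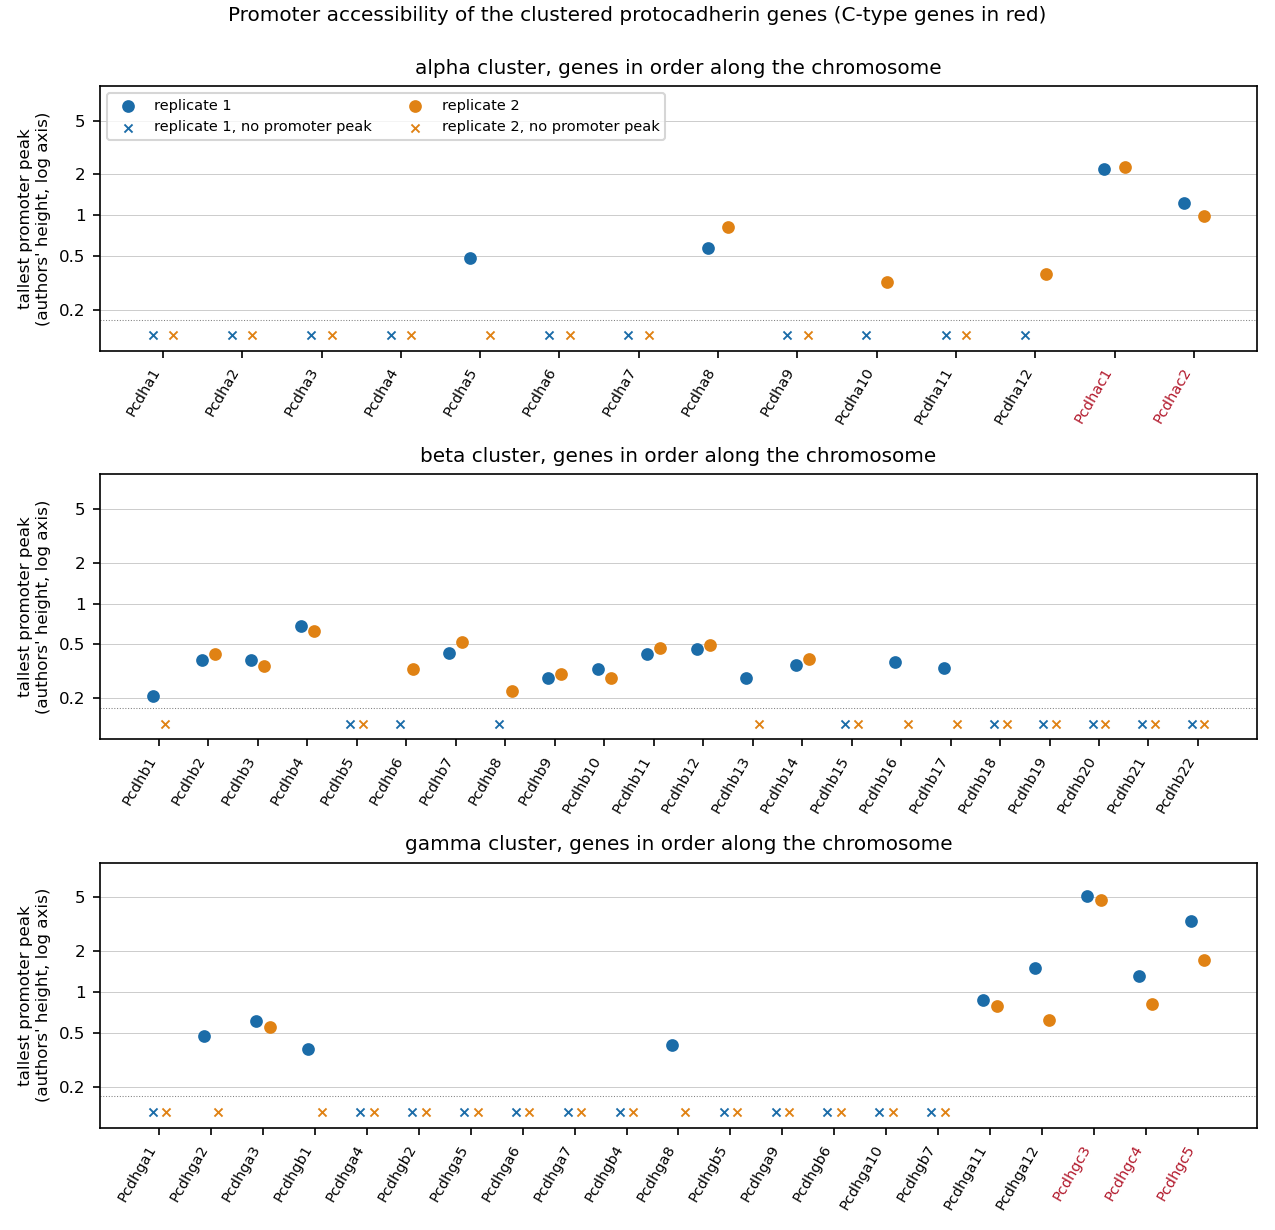
Height of the tallest promoter peak (authors' units, log axis) of each member in replicate 1 (blue) and replicate 2 (orange), in order along the chromosome; crosses below the dotted line mark a replicate with no promoter peak, and C-type names are red. The C-type genes at the right end of the alpha and gamma panels reach 0.814 to 5.15, the beta genes stay below 0.7, and most alpha and gamma alternates have no peak.

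Set beside all other open promoters, the open members were low. With the shorter peak lists, which the authors also deposited, 7 members were open in both replicates (the 5 C-type genes, Pcdhb4 and Pcdhb7), against 58.0% of all protein-coding genes. Of the 18 members open in both replicates with the longer lists, 6 had a mean height above 1, namely the 5 C-type genes and Pcdhga12, against 85.0% of the other open promoters. The median was 0.624 over the 18 members and 3.26 over all other open promoters, whose quartiles were 1.55 and 5.63. The order of the 18 was close in both replicates (Spearman's rho 0.93, and 0.91 over the 13 that are not C-type). As a description over these promoters, which share their libraries, height rose with GC content (rho 0.75, n = 18), less so without the C-type genes (0.43, n = 13), and the rho with the CpG ratio was 0.37 over the 18.

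**Figure D3:**
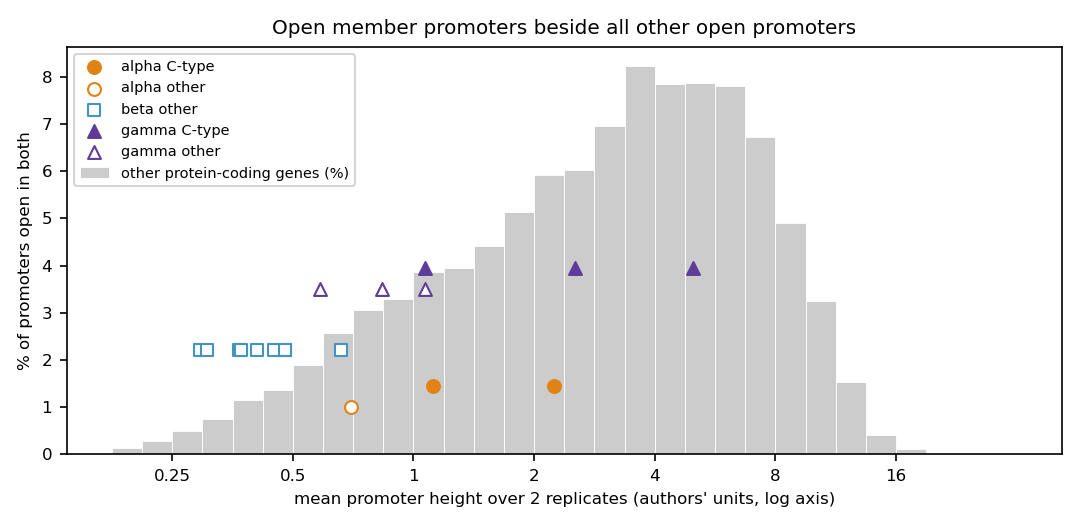
Mean promoter height over both replicates (authors' units, log axis) of the members open in both (symbols by cluster, filled for C-type, set at arbitrary heights on the plot) over the distribution for all other open protein-coding promoters (grey bars, % of those promoters). All beta members lie in the lower tail, from 0.293 to 0.661, and Pcdhgc3, at 4.98, is the single member above the median of the other genes, 3.26.

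The replicates were compared after scaling to the median log2 ratio of all 101938 paired peaks, which was -0.19 for replicate 2 over replicate 1. The scaled log2 ratio had a median of 0.08 over the 18 members and -0.14 over all open promoters, and without scaling the members' median was -0.11. The ratio was above 0 in 8 of 9 beta genes (median 0.30) and in 2 of 5 C-type genes (median -0.13). The share of all open promoters above 0 was not taken, so these counts have no such share beside them. One member, Pcdha8, was more than 1.5-fold higher in replicate 2 (log2 ratio 0.70), where 0.994% of all open promoters were. Pcdhga12 (-1.08) and Pcdhgc5 (-0.76) were more than 1.5-fold lower, where 2.24% of all open promoters were. If each step of height is read as 1 cut, the exact binomial 95% interval is -1.44 to -0.73 for Pcdhga12, -0.98 to -0.55 for Pcdhgc5 and 0.29 to 1.10 for Pcdha8. In each of the 9 beta genes the interval covered 0, for example -0.03 to 0.95 for Pcdhb7. Such intervals cover counting error only, and with 1 sample per replicate a difference between replicates has no further check. The tallest peak of Pcdhgc4 lay at 312 bp in replicate 1 and at -378 bp in replicate 2, so its ratio of -0.51 compares different peaks.

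The position of the peaks was described relative to the start of the coding sequence, because the annotated length from start site to coding sequence varies (0 bp to 610 bp over the beta genes and gamma alternates). From the start site itself, 16 members had a peak within 100 bp in both replicates, against 55.1% of all protein-coding genes. In beta genes and gamma alternates the midpoint of the tallest peak lay 100 to 300 bp before the coding start in 17 of 19 genes in replicate 1 (median -209 bp) and in 14 of 14 in replicate 2 (median -228 bp). Pcdhga12, whose peak is at 331 bp and 356 bp past its annotated start, is one of them, at -206 bp and -181 bp from its coding start. Pcdhb17, at 159 bp past its start, lay at -205 bp from its coding start. Over the same genes the median from the start site was -22 bp in replicate 1 (quartiles -36 and 32.5) and -34.5 bp in replicate 2 (quartiles -47 and -23.25). From the coding start the quartiles were -226.5 and -180 bp in replicate 1 and -230.75 and -192 bp in replicate 2. The range of 100 to 300 bp was chosen after the values were seen, and no share over all genes was taken for it. The alpha alternates differed in position: the peaks of Pcdha5, Pcdha8 and Pcdha12 lay 426 to 479 bp past the coding start.

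Strings of 2 known elements were searched on both strands. The string GGNGNCGCT, a loose form of the CGCT box written after the promoters had been viewed, was found within 500 bp of the start in 41 of 57 members, against 23.2% of all protein-coding genes, and its stricter form GGTGGCGCT in 19 members, against 2.11% of all genes. It was present in 20 of 22 beta genes, 12 of 18 gamma alternates, 6 of 12 alpha alternates and 3 of 5 C-type genes. At the C-type genes Pcdhac2 and Pcdhgc3 the string nearest the start was in reverse orientation, 153 bp and 18 bp past the start. At all other members with the string it was in the orientation of the gene. In the beta genes and gamma alternates it lay at a median of -234 bp from the coding start, near the peaks' own midpoints. Members with the string were open in both replicates in 14 of 41 cases and those without it in 4 of 16, so that most promoters with the string had no peak in both replicates. At 13 members a string lay within a peak of both replicates, and at 10 of these 13 a footprint of both replicates overlapped it, against 45.4% over all open promoters with the string inside a peak. These 10 include Pcdhac1, Pcdhac2, Pcdhb4, Pcdhb7, Pcdhb12, Pcdhga3 and Pcdhga11. The alpha alternates with the string, Pcdha1, Pcdha2, Pcdha3, Pcdha5, Pcdha6 and Pcdha11, had no peak or footprint over it in either replicate.

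In the form searched here, on both strands, a core string of the CTCF motif had a different place. It lay within 500 bp of a start site in 2 members, against 8.93% of all genes, and within 1000 bp in 9 members, against 16.0% of all genes. Of these 9, 7 were alpha alternates (Pcdha1, Pcdha4, Pcdha6, Pcdha7, Pcdha8, Pcdha9 and Pcdha12) with the string in the coding exon, 542.5 to 586.5 bp past the start and in the orientation of the gene. At Pcdha8 it lay inside the peak of both replicates and under a footprint in both, and at Pcdha12 inside the peak of replicate 2, with a footprint there. At the other 5 of the 7 no peak was called over it. Pcdha5, whose exon peak in replicate 1 is similar in position, does not hold this string in the window. At no member did the CTCF string overlap the CGCT-box string. The count within 500 bp depended on the letters, with 0 members for a stricter string and 23 for a looser one. No share over all genes was taken for these other forms. CTCF can also bind the CGCT box, so a low count of the core string does not show that CTCF sites are absent. A match of letters is a description and does not show that CTCF was bound.

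**Figure D4:**
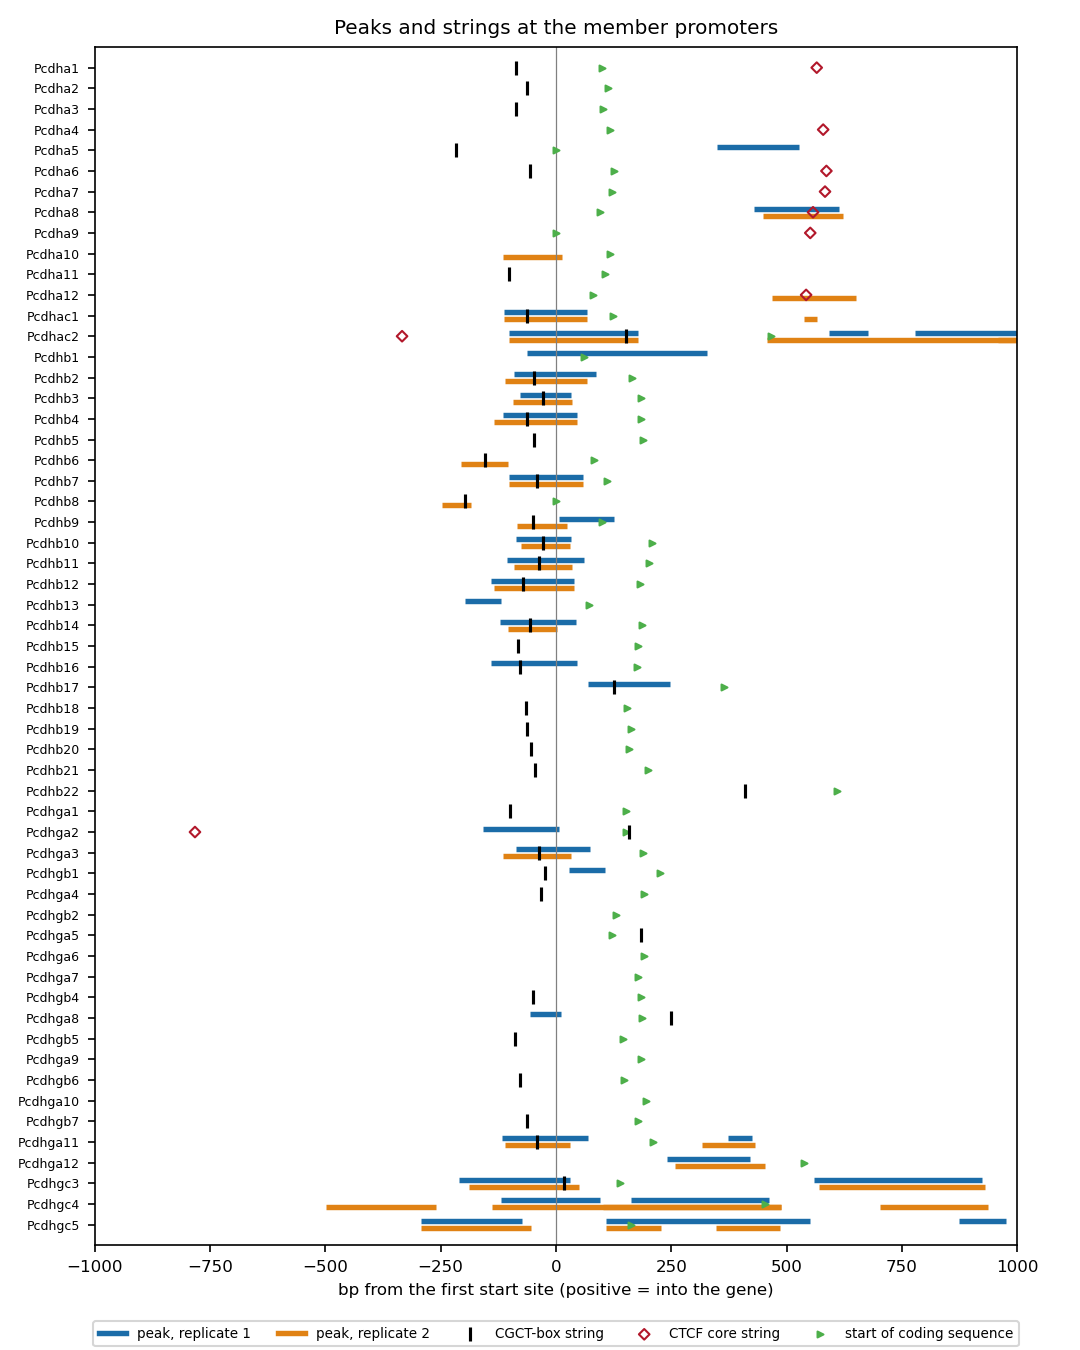
Each member is a row, in order along the chromosome; bars are peaks of replicate 1 (blue) and replicate 2 (orange), by bp from the first start site (horizontal axis), with ticks for the CGCT-box string nearest the start, diamonds for the CTCF core string and triangles for the coding start. Most beta peaks overlap the CGCT-box string, before the coding start, while the alpha alternate peaks of Pcdha5, Pcdha8 and Pcdha12 sit 439 to 560 bp past the start.

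Across the 3 clusters and the gaps between them, 911.7 kb, replicate 1 had 49 peaks and replicate 2 had 50, or 5.37 and 5.48 per 100 kb, against a median of 5 and 4 in windows of 100 kb on the autosomes. They were unevenly spread. The alpha alternate array, from Pcdha1 to just before Pcdhac1, held 2 and 4 peaks in 158.8 kb, or 1.26 and 2.52 per 100 kb. The C-type end of the gamma cluster, from just before Pcdhgc3, held 11 and 15 peaks in 36.5 kb, or 30.2 and 41.1 per 100 kb. In the beta cluster (13 and 11 peaks in 259.5 kb) each peak of either replicate lay at a member promoter. With the flanks of 200 kb the density was 6.52 ± 0.0539 per 100 kb (SD, n = 2).

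The summed height within the clusters and gaps was divided between member promoters and all other sites, which include the promoters of Taf7 and Pcdhgb8. C-type promoters held 29.5% of it in replicate 1 and 32.8% in replicate 2, other member promoters 17.4% and 15.5%, and sites elsewhere 53.1% and 51.7%. With the Taf7 peak left out of the total, sites elsewhere held 48.0% and 46.5%. The summed length of these peaks was 2.87 kb and 4.22 kb at C-type promoters, 3.46 kb and 2.52 kb at other member promoters and 3.32 kb and 3.70 kb elsewhere. Their mean heights were 1.66 and 1.27, 0.488 and 0.466, and 2.05 and 1.56, each time for replicate 1 and then replicate 2.

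The tallest site within the clusters and gaps lay between the alpha and beta arrays, 30.6 kb past the last alpha constant exon. This peak at chr18:37218221-37218460 had a height of 7.99 in replicate 1 and 6.73 in replicate 2, above every member promoter in both, with 6 footprints in each. Smaller peaks stood beside it at chr18:37217361-37217560 (3.20 and 2.48), which holds the CTCF core string, and at chr18:37217841-37218080 (1.99 and 1.64). All 3 lie outside annotated exons. Within the last intron of the alpha constant region, past Pcdhac2, there were peaks at chr18:37172281-37172500 (2.99 and 2.55) and chr18:37178341-37178700 (1.43 and 1.26). The first overlaps an annotated exon of Gm38097 and the second an exon of Gm10544. Both this last alpha intron and the stretch after the alpha array are known in the mouse to hold enhancers of the alpha genes, though no such annotation was used to place these peaks. In the gamma cluster a peak at chr18:37824241-37824600 (2.03 and 1.24) lay just before the first constant exon. It overlaps an annotated exon of Gm38182.

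Of the 8 tallest sites outside member promoters over the whole region, 7 were in the flanks or the gap after beta, at or near other genes. Nearness gives a position only, and which genes these sites act on was not tested. The tallest was chr18:37852161-37852400, in an intron of Diaph1 (a formin that nucleates actin filaments), 10.3 kb past the end of the gamma constant exons, with 9.66 in replicate 1 and 10.2 in replicate 2. The nearest start site to this peak was that of Pcdhgc5, at 32715 bp. A second Diaph1 intron peak, at chr18:37883561-37883760, had 6.39 and 7.17. These 2 were the ones of the 8 in which replicate 2 was the higher. The promoters of Tmco6 (9.21 and 7.97), Zmat2 (7.98 and 6.25), Ik with Ndufa2 (7.27 and 4.99) and Diaph1 (6.60 and 4.94) marked the flanks, and the promoter of Taf7, a subunit of the general transcription factor TFIID that lies between the beta and gamma arrays, had 6.07 and 5.30. Several of these sites changed order between replicates.

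**Figure D5:**
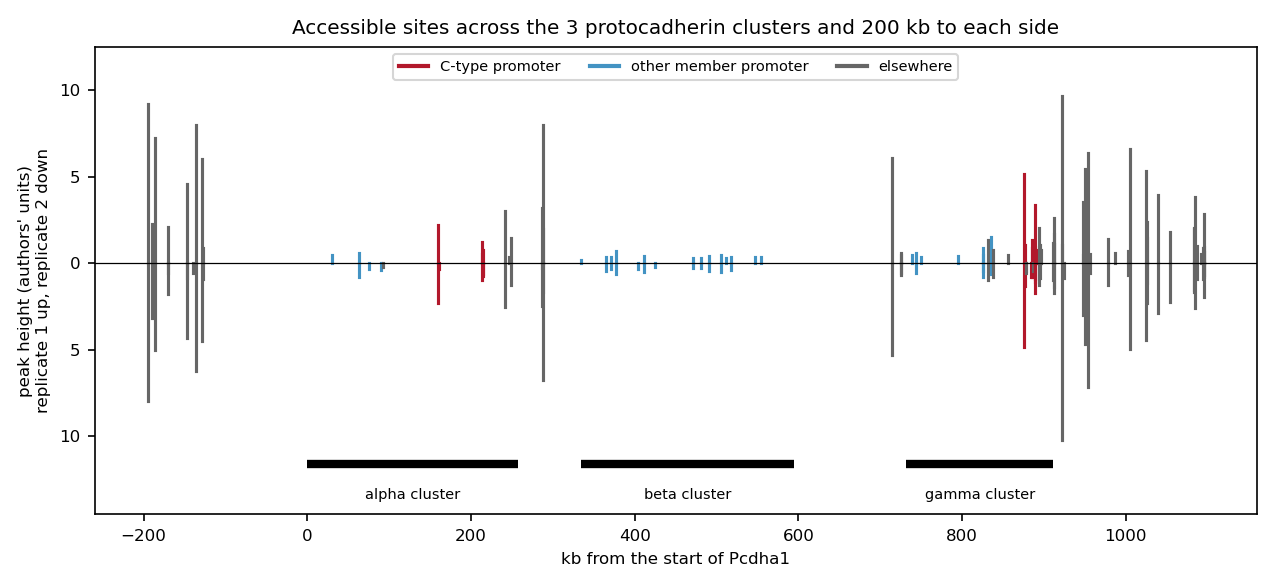
Every peak over the 3 clusters and 200 kb to each side, by distance from the start of Pcdha1 (kb), with height in the authors' units, replicate 1 upward and replicate 2 downward; red marks C-type promoters, blue other member promoters and grey all other sites. The alternate and beta promoters are low beside the C-type promoters, the site between alpha and beta (7.99 and 6.73) and the tallest sites in the flanks.

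The open share of other gene families was set beside that of the clustered genes, 18 of 57. The share over all protein-coding genes was 62.6%, and the families were not matched for CpG content. Of 12 non-clustered protocadherins, single genes that encode related adhesion proteins, 11 were open in both replicates, with a median height of 1.77. Pcdh10 (9.30 in replicate 1 and 7.77 in replicate 2), Pcdh9 (10.4 and 6.25) and Pcdh17 (8.47 and 6.40) were highest and Pcdh12, which is known from endothelium, had no peak. Of 20 regulators of promoter choice and chromatin 19 were open in both, led by the cohesin genes Stag1 (11.1 and 9.56) and Smc3 (10.6 and 9.21). Ctcf itself had 3.30 and 2.69, and Tet1, which oxidises methylated cytosine, had no peak. All 15 signalling and adhesion partners were open, led by Wasf1 (10.8 and 7.30), Nlgn2 (9.39 and 6.14) and Fyn (7.44 and 5.27). The Hox genes, another clustered family, which pattern the body axis and are silent in the forebrain, had 3 of 39 open in both, with Hoxc5 (0.715 and 0.723) highest, then Hoxa10 (0.558 and 0.568) and Hoxb5 (0.518 and 0.452). Hoxa11 and Hoxa13 were among the 35 with no peak.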

How the data were processed

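DNase-seq files of 2 samples in 1 group were used. Per the labels each is a biological replicate made from a pool of 2 biosamples, and the assembly is mm10. For the aligner and callers: not given in the sources used here. Whether the pools share animals is not known. The authors deposited, per sample, 2 peak lists with a height per peak (unit: signal, scale not stated), false discovery rates (q-values) for bases at 0.05 or less, and footprints with an unnamed constant of 0.01 that was not used. The longer peak list was used. Below 200 steps, each deposited height came within 0.1 of a whole number of steps.

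Start sites were those of GENCODE M21 (basic set) protein-coding transcripts, sequence was GRCm38, and windows and overlaps (1 bp) were computed in Python 3.11.15 (pandas 2.3.3, numpy 2.4.6, scipy 1.17.1; plots from matplotlib 3.10.9). Peaks were paired where each was the other's largest overlap. On simulated data for 21851 genes, open status was recovered for 100% of genes. Each simulated gene had a single, well separated start site, and its peak was planted without noise in both replicates. The result therefore checks the counting code and does not measure how reliable the open calls in these arrays are. With 1 group of 2 pools, nothing could be tested across conditions, and the SDs measure only the spread between these pools.

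The members and lists were chosen with earlier results of these data known. The text names the 3 highest promoters per cluster, all C-type genes, up to 10 members called in 1 replicate alone, up to 10 with no peak, the 8 tallest other sites in the region and, per comparison list, the 3 highest and up to 3 with no peak; some genes of the comparison lists are not reported here. The remaining names, the CGCT-box string, the distances to the coding start, the order along the arrays and the uniqueness classes were chosen after the values were seen. No member sequence is printed.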

Additional observations from a re-analysis of the deposited data

How the results depend on the processing

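The alternatives changed the peak list, window, overlap, start sites, height limit, scaling, strings and replicates. The count of 18 members open in both replicates was also 18 with windows of 500 bp and 2000 bp, with the peak midpoint inside the window and with the gene's 5′ end alone, and 16 with 100 bp (added after seeing the data). It was 7 with the shorter peak lists and 6 with peaks at or above each sample's median height, and 22 to 26 with 1 replicate at a time. The median height of 0.624 was 1.12 with the shorter lists and 0.591 to 0.597 with 1 replicate at a time. Members with footprints in both replicates numbered 17, and 16 to 17 with other windows and overlaps and 21 with either replicate alone. The density of 6.52 peaks per 100 kb was 3.85 with the shorter lists, 5.58 with flanks of 100 kb and 4.31 with peaks at or above the median height. The median scaled log2 ratio of 0.08 turned to -0.11 without scaling and was 0.24 with summed heights. Members with the CTCF core string within 500 bp numbered 2, and 0 with a stricter string, 23 with a looser one, 0 within 200 bp and 9 within 1000 bp. The string lay inside a peak of both replicates in 1 member and of either in 2. The CGCT-box count of 41 became 19 with GGTGGCGCT. The cause of these shifts was not tested. Among the alternatives, a share over all genes was taken only for the shorter lists, the 100 bp window, the 1000 bp string window and GGTGGCGCT. The other counts have no such share beside them, so they cannot be called high or low. No paired analysis was possible because there is 1 group. Limits: 12 members had a peak in 1 replicate alone, read totals are not given, mapping to repeated array sequence and to the CAST/EiJ allele was not tested, and bulk tissue averages over its cells.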

Other observations

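Pcdhgb8 is not among the 57 members, because GENCODE M21 annotates it as a polymorphic pseudogene. It lies between Pcdhga11 and Pcdhga12, and its promoter peak had a height of 1.34 in replicate 1 and 0.962 in replicate 2, with 3 and 4 footprints, above Pcdhga11 in both replicates. It holds the CGCT-box string within the peak of both replicates, under a footprint in both.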
